A study of Rattus norvegicus with 12 samples.

Results

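The endothelin system genes are the genes of the 3 endothelin peptides (Edn1, Edn2 and Edn3), of their receptors (Ednra and Ednrb) and of the enzymes that make the active peptides (Ece1 and Ece2). These 7 genes were listed by name and looked up through the array's gene annotation, which gave 5 of them 1 probe set each, among 14506 named genes in all. Ednra and Ednrb have no probe set named in the annotation used here and were not analysed here, so the description covers the ligands and the converting enzymes. The genes were looked up by name, but the set was chosen with earlier results of these data known.

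Endothelins are short vasoactive peptides that are cut out of larger precursors. A furin-type protease releases an inactive intermediate, big endothelin, and an endothelin-converting enzyme then cuts it to the active peptide. The active peptide binds G protein-coupled receptors: the type A receptor on smooth muscle drives contraction and growth, and the type B receptor on endothelium drives relaxation and removes the peptide. Endothelin-1, the product of Edn1, is made chiefly by endothelial cells, but vascular smooth muscle cells make it too, and angiotensin II is known as an inducer of endothelin-1 in cultured vascular cells.

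The cells were aortic vascular smooth muscle cells of Sprague-Dawley rats, labelled differentiated. All of them had grown in medium with 10% serum and had then spent 48 h in serum-free medium. Angiotensin II (Ang II), the constrictor hormone of the renin-angiotensin system, was given at 100 nM, and the 12 arrays hold 3 replicates each of untreated cells and of the 6 h, 12 h and 24 h time points. These times are those of the titles, whereas the treatment protocol names 1, 3 or 24 h. Replicates are labelled as biological, but no label ties them to different animals or dishes, and the p-values therefore cover array-to-array spread that may be technical. Serum withdrawal is shared by all groups, and each comparison with untreated cells holds both Ang II and the added time in culture, which cannot be told apart. Values are log2 expression values of 1 probe set, so a difference of 1 is a 2-fold difference. Levels of different genes are not read as relative amounts of their RNA.

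The arrays correlated at 0.9957 to 0.9973 within groups and at 0.9881 to 0.9939 between groups, and none held the same values as another. Against untreated cells 2703 genes were higher and 2488 lower at 6 h, 1932 and 1923 at 12 h, and 2222 and 2136 at 24 h (limma, adjusted p under 0.05). Centring each array on its median moved the 24 h split to 3559 higher and 1713 lower, with a median change of all genes of 0.1 in place of 0.047. Of the 5 measured endothelin system genes, 3 passed at 6 h, 2 at 12 h and 3 at 24 h, while 35.8%, 26.6% and 30.0% of all genes passed at these times. The comparisons at the 3 times share the same untreated arrays and are not independent of each other. The F test, which asks whether a gene differs among the 4 groups at all, was passed by 2 of the 5, Edn1 and Ece1, and by 51.5% of all genes. Both of these also changed by at least 1.5-fold at all 3 times, Edn1 downward and Ece1 upward. A passing fall of that size was found in 3.65% of genes at 6 h, 1.73% at 12 h and 2.29% at 24 h, and a passing rise of that size in 3.23%, 1.96% and 1.59%.

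**Figure D1:**
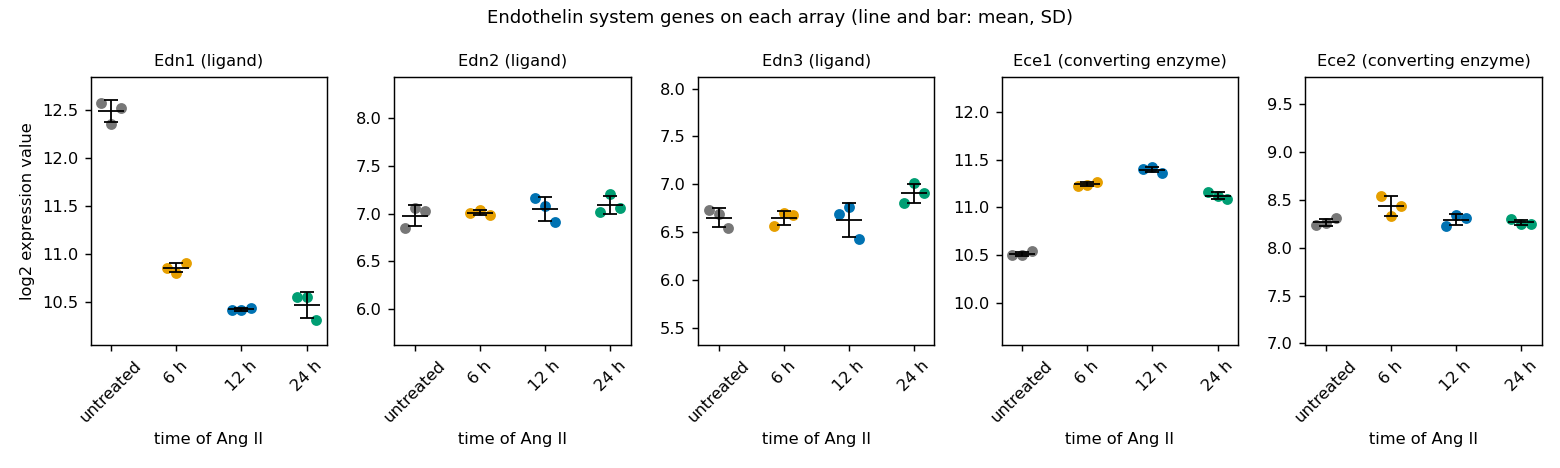
Log2 expression values of the 5 measured endothelin system genes on each of the 12 arrays, by time of Ang II (points: arrays; line and bar: mean and SD of 3 arrays; each vertical axis has its own level but the same span). The Edn1 arrays lie highest in untreated cells (12.36 to 12.58) and the Ece1 arrays lowest there (10.50 to 10.54), while the arrays of Edn2 overlap among all groups.

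Edn1, the gene of the main vascular endothelin, was lower after Ang II than in untreated cells at every time measured. Its log2 values were 12.58, 12.36 and 12.53 in untreated cells, 10.85, 10.80 and 10.90 at 6 h, 10.41, 10.41 and 10.43 at 12 h, and 10.55, 10.54 and 10.31 at 24 h. All 9 Ang II arrays lay below all 3 untreated arrays, with a gap of more than 1 on the log2 scale. The Edn1 level was 3.11-fold lower at 6 h (log2 change −1.64 ± 0.07, SE, n = 3 per group, limma adjusted p = 7.43e-09), 4.2-fold lower at 12 h (−2.07 ± 0.07, adjusted p = 2.65e-09) and 4.06-fold lower at 24 h (−2.02 ± 0.07, adjusted p = 5.69e-09). Among the changes of all 14506 genes, that of Edn1 was the 35th largest fall at 6 h, the 9th at 12 h and the 13th at 24 h. Arrays that do not overlap between the 2 groups were common, at 47.2% of genes at 6 h, 40.8% at 12 h and 44.8% at 24 h.

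Most of the fall of Edn1 was present at 6 h, and it went further by 12 h. The 12 h arrays lay below the 6 h arrays, with means of 10.42 ± 0.01 at 12 h and 10.85 ± 0.05 at 6 h (SD, n = 3 each; log2 difference −0.43 ± 0.07, SE, limma adjusted p = 0.000695). In this comparison of times 27.0% of all genes passed, and the arrays of 39.3% did not overlap. The 24 h mean of 10.47 ± 0.13 did not differ from that at 12 h beyond the spread (0.05 ± 0.07, 95% interval −0.11 to 0.21, adjusted p = 0.636). It remained below the 6 h mean (−0.38 ± 0.07, adjusted p = 0.000996), in a comparison that 39.2% of genes passed and in which 48.9% did not overlap. In order of level, untreated cells were highest and 6 h cells next, and the 12 h and 24 h cells stood lowest without a difference between them that passed.

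The promoter of Edn1 is shown because this gene had the largest change of the 5, and that of Ece1 because it moved the other way. The windows run from 250 bases before to 50 bases after the RefSeq start of the gene (rat build GRCr8), and 6 of the 7 listed genes have one. Edn1 lies on chromosome 17 (window chr17:22666638-22666937, minus strand) and Ece1 on chromosome 5 (window chr5:155360781-155361080, plus strand). Capitals mark the letters of any of 7 motifs on either strand. The AP-1 consensus was searched as TGANTCA. A known variant of this site was searched as TGACTAA. The binding site of the GATA family was searched as GATAA. The core of the hypoxia response element was searched as ACGTG. The site known from FOXO factors was searched as TGTTTAC. The site of Sp1 was searched as GGGCGG, and the TATA box as TATAAA.
Edn1: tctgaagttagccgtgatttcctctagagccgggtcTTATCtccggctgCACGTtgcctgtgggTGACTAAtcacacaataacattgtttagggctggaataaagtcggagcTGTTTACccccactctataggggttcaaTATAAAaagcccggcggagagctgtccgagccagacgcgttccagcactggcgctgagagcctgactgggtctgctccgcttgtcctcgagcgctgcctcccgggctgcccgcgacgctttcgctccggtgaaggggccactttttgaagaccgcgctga
Ece1: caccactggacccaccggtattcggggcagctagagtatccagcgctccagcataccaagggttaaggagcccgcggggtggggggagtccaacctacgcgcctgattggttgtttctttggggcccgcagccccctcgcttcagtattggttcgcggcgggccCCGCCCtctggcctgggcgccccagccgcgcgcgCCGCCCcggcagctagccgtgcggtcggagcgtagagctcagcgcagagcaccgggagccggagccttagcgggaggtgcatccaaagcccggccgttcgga

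In the Edn1 window, counted from the RefSeq start by the first base of a match, the AP-1 variant lay at −186, the GATA letters (minus strand) at −214, the hypoxia core (minus strand) at −201, the FOXO letters at −138 and the TATA letters at −110. None of these matches overlapped another. The AP-1 variant is present in 2.3% of 33469 promoter windows of the same length, the FOXO letters in 3.8%, the TATA letters in 14.2%, the hypoxia core in 19.3% and the GATA letters in 26.5%. The AP-1 consensus itself (7.3% of windows) was not in the Edn1 window. The Ece1 window held the Sp1 letters on the minus strand at 2 places, −86 and −52, and none of the other 6 motifs, while 33.1% of all windows hold the Sp1 letters. The windows of Edn2 (−228, −140 and −136) and Ece2 (−56) also held the Sp1 letters, on the plus strand, and none of the other 6 motifs. Those of Ednra and Ednrb held none of the 7. G and C made up 57.3% of the Edn1 window and 69.3% of the Ece1 window, against a median of 51.7% over all windows. AP-1, GATA, hypoxia and FOXO factors are also on the list, read below, of factors known to act on Edn1. The search was therefore not an open one, and the shares of windows do not measure how unusual the Edn1 matches are. These matches describe letters and say nothing of which factor was bound.

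Edn2 encodes endothelin-2, a peptide that acts on the same receptors. Its log2 values were 6.85, 7.06 and 7.02 in untreated cells, 7.00, 7.04 and 6.98 at 6 h, 7.16, 7.08 and 6.91 at 12 h, and 7.01, 7.20 and 7.06 at 24 h. The groups overlapped at all times, and no comparison passed. The log2 change was 0.03 at 6 h (95% interval −0.13 to 0.20, limma adjusted p = 0.814), 0.07 at 12 h (−0.09 to 0.24, adjusted p = 0.564) and 0.11 at 24 h (−0.05 to 0.28, adjusted p = 0.29). The intervals leave out a fall of the size seen for Edn1. Edn2 and Edn3 both had a mean over the 12 arrays (7.03 and 6.71) under the median of all genes (8.00), which is the cut of a filter used below. Such probe set levels do not rank genes by their amount of RNA.

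Edn3 encodes endothelin-3, which prefers the type B receptor. Its log2 values were 6.73, 6.68 and 6.54 in untreated cells, 6.56, 6.70 and 6.68 at 6 h, 6.69, 6.77 and 6.43 at 12 h, and 6.81, 7.01 and 6.91 at 24 h. The 24 h arrays lay above all others by a small margin, and the other 3 groups overlapped. The change at 24 h was 0.25 ± 0.09 (1.19-fold, limma adjusted p = 0.0479), just inside the threshold, whereas the changes at 6 h (0.00 ± 0.09, adjusted p = 0.984) and 12 h (−0.02 ± 0.09, adjusted p = 0.894) did not pass. Edn3 at 24 h was also above 12 h (0.28 ± 0.09, adjusted p = 0.0361) and above 6 h (0.26 ± 0.09, adjusted p = 0.036). The F test over the 4 groups did not pass (adjusted p = 0.0505).

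The call of Edn3 at 24 h against untreated cells was lost in 9 of the 12 fits that left out 1 array (adjusted p 0.0534 to 0.166, log2 change 0.20 to 0.29). These were the fits without any of the 3 untreated or the 3 6 h arrays, without replicate 1 at 12 h, and without replicate 2 or 3 at 24 h. It was lost as well with quantile normalization (0.18, adjusted p = 0.103) and with all probe sets tested (0.25, adjusted p = 0.0721). The difference of 24 h from 12 h did not pass without replicate 3 at 12 h or replicate 2 or 3 at 24 h (adjusted p 0.077 to 0.128), and that from 6 h did not pass without replicate 1 or 3 at 6 h or replicate 2 or 3 at 24 h (adjusted p 0.0625 to 0.13). Both were lost with quantile normalization (0.21 against 12 h, adjusted p = 0.0625, and 0.17 against 6 h, adjusted p = 0.0988) and with all probe sets tested (adjusted p = 0.0592 and 0.0588). With the 2 groups alone, only the difference from 12 h was lost (adjusted p = 0.085).

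Ece1, the gene of the main endothelin-converting enzyme, was higher after Ang II at every time, against the direction of the peptide gene Edn1. Its log2 values were 10.50, 10.50 and 10.54 in untreated cells, 11.23, 11.23 and 11.27 at 6 h, 11.40, 11.42 and 11.36 at 12 h, and 11.16, 11.12 and 11.09 at 24 h. All 9 Ang II arrays lay above the 3 untreated arrays, and none of the 4 groups overlapped another. Depending on the comparison, the arrays of 39.3% to 48.9% of all genes did not overlap. Ece1 rose 1.66-fold at 6 h (log2 change 0.73 ± 0.04, SE, limma adjusted p = 3.32e-08), 1.84-fold at 12 h (0.88 ± 0.04, adjusted p = 1.62e-08) and 1.53-fold at 24 h (0.61 ± 0.04, adjusted p = 3.28e-07). Its change was the 296th largest rise of 14506 genes at 6 h, the 116th at 12 h and the 206th at 24 h.

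The level of Ece1 was highest at 12 h. The mean was 11.40 ± 0.03 at 12 h and 11.24 ± 0.02 at 6 h (SD, n = 3 each). The log2 difference was 0.15 ± 0.04 (SE, limma adjusted p = 0.0101), in a comparison that 27.0% of genes passed. At 24 h the mean was 11.12 ± 0.03, below that at 12 h (−0.27 ± 0.04, adjusted p = 0.000262), in a comparison that 27.5% of genes passed and in which 40.3% did not overlap. The step between 24 h and 6 h, a comparison that 39.2% of genes passed, was smaller (−0.12 ± 0.04, adjusted p = 0.0259). It did not pass without replicate 1 or 3 at 6 h or replicate 2 or 3 at 24 h (adjusted p 0.0503 to 0.0889), nor with median centring (−0.081, adjusted p = 0.0987) or with the 2 groups alone (adjusted p = 0.084).

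Ece2 encodes a related converting enzyme that works at acidic pH and is known chiefly from nervous tissue. Its log2 values were 8.23, 8.26 and 8.31 in untreated cells, 8.54, 8.33 and 8.43 at 6 h, 8.23, 8.35 and 8.31 at 12 h, and 8.30, 8.24 and 8.25 at 24 h. The 6 h arrays lay above the untreated ones by a narrow margin, and the 12 h and 24 h arrays overlapped with untreated. The change at 6 h was 0.17 ± 0.06 (1.12-fold, limma adjusted p = 0.0317), and those at 12 h (0.03 ± 0.06, adjusted p = 0.785) and 24 h (0.00 ± 0.06, adjusted p = 0.983) did not pass. The 24 h level was lower than that at 6 h (−0.17 ± 0.06, adjusted p = 0.0281), and the F test did not pass (adjusted p = 0.0555).

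The call of Ece2 at 6 h did not pass without replicate 1 or 2 of the untreated cells or replicate 1 or 3 at 6 h (adjusted p 0.0738 to 0.136). It was lost as well with the replicate number as a block (0.17, adjusted p = 0.0511), with the 2 groups alone (adjusted p = 0.0672) and with all probe sets tested (adjusted p = 0.0552). The call of 24 h against 6 h did not pass without replicate 1 or 3 at 6 h or replicate 2 or 3 at 24 h (adjusted p 0.0665 to 0.122). It was lost as well with quantile normalization (−0.12, adjusted p = 0.0564) and with the 2 groups alone (adjusted p = 0.0714). RefSeq places a long non-coding RNA gene over part of Ece2, and how the probe set divides between them is not known here.

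**Figure D2:**
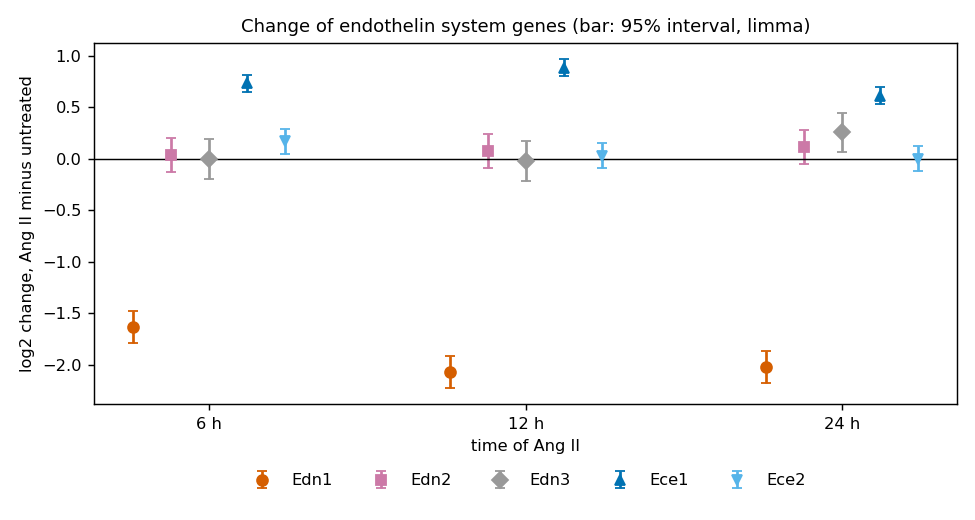
Log2 change of each endothelin system gene at 6, 12 and 24 h of Ang II against untreated cells, with 95% intervals from limma (3 arrays per group). Edn1 lies between −2.07 and −1.64 and Ece1 between 0.61 and 0.88, while the largest change of the other 3 genes is that of Edn3 at 24 h (0.25).

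**Figure D3:**
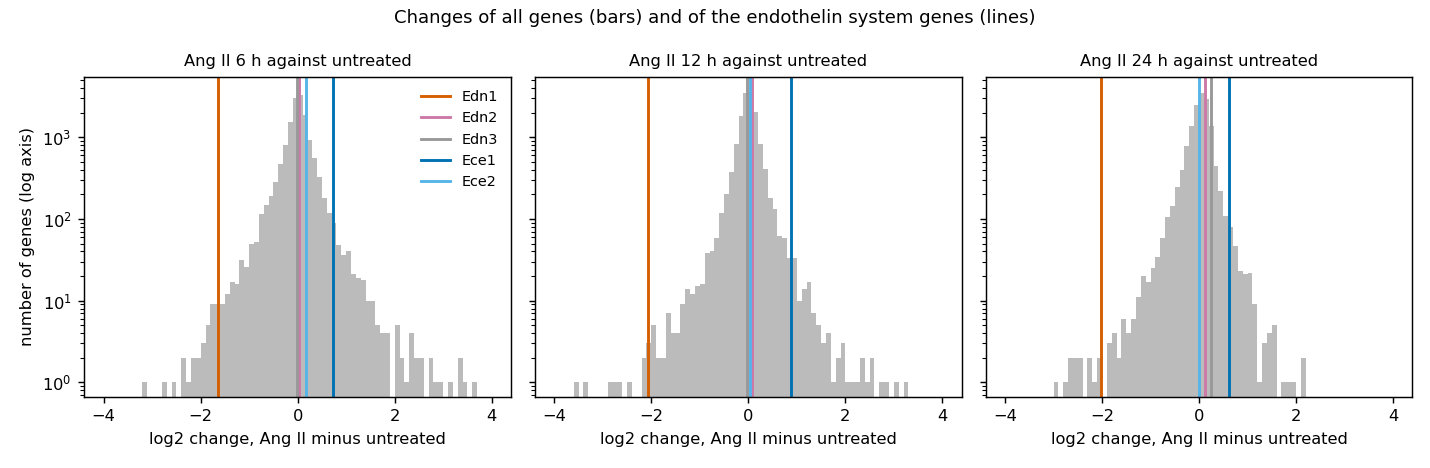
Distribution of the log2 changes of 14506 genes against untreated cells at each time (bars, number of genes on a log axis), with the 5 endothelin system genes as lines. Edn1 stands in the lower tail at all 3 times and Ece1 on the upper side, and the other 3 lie in the bulk of the genes.

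The enzymes around the pathway were read from a list of 12 genes that process or clear endothelins or belong to the same protease family, of which 11 were measured. At 6 h 3 of them rose and 3 fell, at 12 h 2 rose and 3 fell, and at 24 h 1 rose and 2 fell (limma, adjusted p under 0.05). These are 54.5%, 45.5% and 27.3% of the list, beside 35.8%, 26.6% and 30.0% of all genes. The list's median change was 0.08 at 6 h, −0.07 at 12 h and 0.07 at 24 h, beside medians of 0.011, 0.005 and 0.047 over all genes. Centring the arrays on their medians gave 3 that rose and 2 that fell at 24 h.

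Furin, the protease that cuts the endothelin precursor to big endothelin, rose at all 3 times. Its log2 level was 10.80 ± 0.04 in untreated cells, 11.28 ± 0.04 at 6 h, 11.13 ± 0.06 at 12 h and 11.04 ± 0.02 at 24 h (SD, n = 3 each). The changes were 0.48 ± 0.04 at 6 h, 0.33 ± 0.04 at 12 h and 0.24 ± 0.04 at 24 h (SE, limma adjusted p = 4.62e-06, 0.000154 and 0.00145). Furin thus moved in the direction of Ece1, with its highest level at 6 h instead of 12 h.

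Mme, which encodes neprilysin, a peptidase that degrades endothelin-1, fell at all 3 times. Its log2 level was 7.55 ± 0.07 in untreated cells, 7.27 ± 0.08 at 6 h, 7.23 ± 0.12 at 12 h and 6.89 ± 0.09 at 24 h (SD, n = 3 each). The changes were −0.28 ± 0.07 at 6 h, −0.32 ± 0.07 at 12 h and −0.65 ± 0.07 at 24 h (SE, limma adjusted p = 0.00823, 0.00512 and 2.56e-05). Among other convertase genes, Pcsk7 changed by 0.40 ± 0.07 at 6 h (adjusted p = 0.000766), and its changes at 12 h (−0.13 ± 0.07) and 24 h (0.05 ± 0.07) did not pass. Phex, a gene of the neprilysin family known for bone mineral, changed by 0.54 ± 0.12 at 6 h and 0.41 ± 0.12 at 12 h (adjusted p = 0.00398 and 0.0252), and by 0.07 ± 0.12 at 24 h (adjusted p = 0.693).

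With the receptor genes not analysed here, the proteins that carry receptor signals were read from a list of 30 genes, all measured. They include G protein subunits, phospholipase C, the inositol trisphosphate receptors, protein kinase C and the kinases and arrestins that silence receptors. At 6 h 9 rose and 4 fell, at 12 h 9 rose and 4 fell, and at 24 h 8 rose and 8 fell, with median changes of 0.03, 0.05 and 0.08. The share that passed was 43.3% at 6 h and 12 h and 53.3% at 24 h, beside 35.8%, 26.6% and 30.0% of all genes. With median centring the count at 24 h was 14 that rose and 4 that fell.

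Grk5, a kinase that desensitises G protein-coupled receptors, rose by 0.71 ± 0.06 at 6 h, 0.78 ± 0.06 at 12 h and 0.18 ± 0.06 at 24 h (SE, limma adjusted p = 1.53e-06, 1.18e-06 and 0.0392). Grk6, of the same family, rose by 0.83 ± 0.06 at 6 h and 0.24 ± 0.06 at 12 h (adjusted p = 4.51e-07 and 0.0101), with 0.11 ± 0.06 at 24 h (adjusted p = 0.188). Prkce, the gene of a protein kinase C isoform, fell by 1.27 at 6 h, 0.61 at 12 h and 0.48 at 24 h on the log2 scale (SE 0.05 each, adjusted p = 6.46e-09, 5.42e-06 and 3.62e-05). Rock1, the gene of a kinase that promotes contraction, did not pass at 6 h (−0.06 ± 0.05, adjusted p = 0.515) and rose by 0.53 ± 0.05 at 12 h and 0.66 ± 0.05 at 24 h (adjusted p = 1.66e-05 and 2.84e-06).

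Other receptors through which hormones constrict smooth muscle were read from a list of 16 genes, 15 of them measured. At 6 h 3 rose and 6 fell, at 12 h 4 rose and 4 fell, and at 24 h 3 rose and 4 fell, with median changes of −0.18, −0.04 and 0.11 (with median centring, 6 rose and 3 fell at 24 h). The share that passed was 60.0%, 53.3% and 46.7%, beside 35.8%, 26.6% and 30.0% of all genes. Agtr1a, the main receptor for Ang II in vessels, had a log2 level of 11.79 ± 0.03 in untreated cells, 9.22 ± 0.10 at 6 h, 9.93 ± 0.04 at 12 h and 10.59 ± 0.07 at 24 h (SD, n = 3 each). Its change was largest at 6 h (−2.57 ± 0.06, SE) and smallest at 24 h (−1.20 ± 0.06), whereas that of Edn1 was smallest at 6 h. The alpha-adrenergic receptor gene Adra1b fell by 1.65 at 6 h, 1.55 at 12 h and 1.11 at 24 h, and the nucleotide receptor gene P2ry6 fell by 1.61 at 6 h and 0.80 at 12 h on the log2 scale, with 0.06 ± 0.07 at 24 h (adjusted p = 0.531). The thrombin receptor gene F2r rose, by 0.61 ± 0.04 at 6 h, 0.45 ± 0.04 at 12 h and 0.25 ± 0.04 at 24 h.

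A list of 29 transcription factors known to act on the Edn1 gene had 26 measured members. At 6 h 7 rose and 12 fell, at 12 h 3 rose and 10 fell, and at 24 h 4 rose and 13 fell (7 and 13 with median centring), with median changes of −0.10, −0.03 and −0.11. Of the 26, 19 passed at 6 h, 13 at 12 h and 17 at 24 h, beside 35.8%, 26.6% and 30.0% of all genes. The largest falls were those of Egr1 (−1.29 ± 0.07 at 6 h, −3.53 ± 0.07 at 12 h and −2.96 ± 0.07 at 24 h), of the AP-1 subunit gene Fos (−1.85 ± 0.10, −2.80 ± 0.10 and −2.71 ± 0.10) and of the Krüppel-like factor gene Klf4 (−1.18 ± 0.07, −1.54 ± 0.07 and −2.53 ± 0.07). Fosl1, another AP-1 subunit gene, rose by 2.35 ± 0.06 at 6 h, did not pass at 12 h (0.05 ± 0.06, limma adjusted p = 0.646) and fell by 0.46 at 24 h. The list is not split into factors that raise and factors that lower Edn1, so a fall in it has no single meaning for Edn1. The falls of immediate-early genes in these data were known when the list was made, so its direction is not independent evidence.

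**Figure D4:**
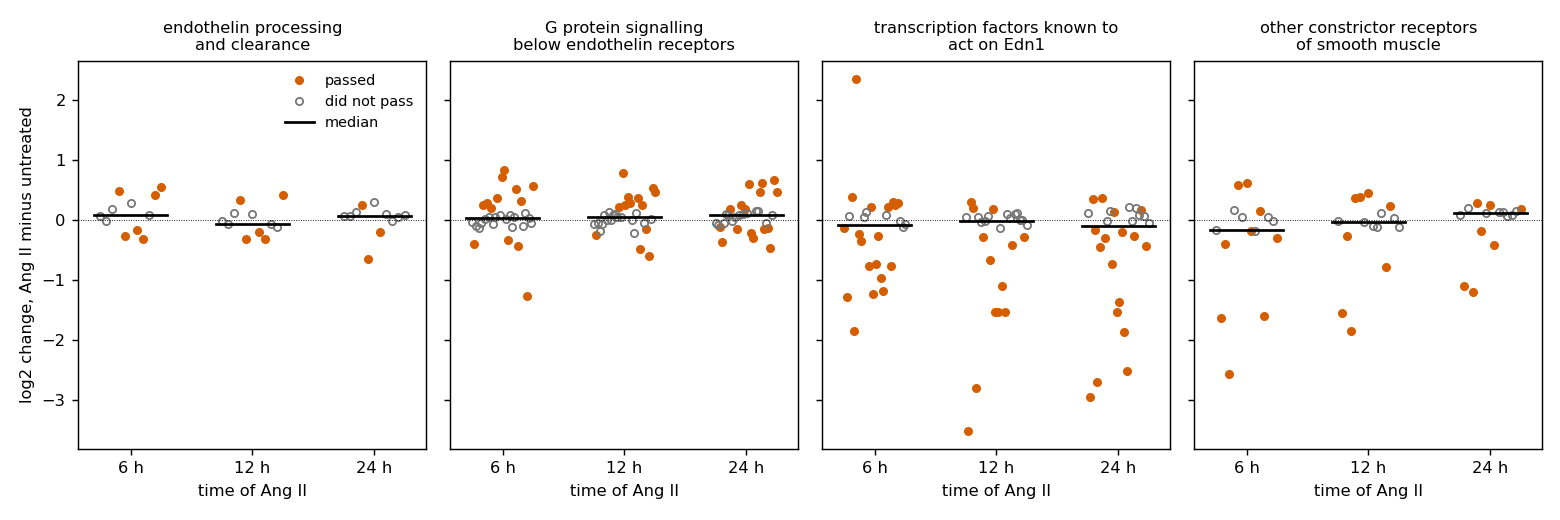
Log2 changes against untreated cells of the measured genes of 4 lists around the endothelin system, at 6, 12 and 24 h of Ang II (filled: limma adjusted p under 0.05; open: did not pass; line: median of the list). The medians stay within 0.18 of zero, while single transcription factor genes reach −3.53 and 2.35.

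Among 2358 genes whose group means span at least 0.5 on the log2 scale, the 5 with the pattern most like that of Edn1 over the 12 arrays were Jun (Pearson r = 0.9937), Egr2 (0.9904), Thbd (0.9887), Fos (0.9876) and Egr3 (0.987). The points are 12 arrays in 4 groups, so these values mostly reflect the 4 group means. Jun, the gene of an AP-1 subunit, had log2 levels of 10.90 ± 0.18 in untreated cells, 9.67 ± 0.06 at 6 h, 9.36 ± 0.06 at 12 h and 9.36 ± 0.03 at 24 h (SD, n = 3 each). Thbd, which encodes the anticoagulant receptor thrombomodulin, had 9.54 ± 0.05 in untreated cells, 8.10 ± 0.10 at 6 h, 7.59 ± 0.06 at 12 h and 7.47 ± 0.07 at 24 h. Both were highest in untreated cells and lower at 12 h and 24 h than at 6 h, as Edn1 was. The 3 genes most like Ece1 were Rhoj (0.9931), a small GTPase gene, Msn (0.9893), which encodes the membrane-cytoskeleton linker moesin, and Phyhd1 (0.9887). Their largest change was at 12 h too, with 0.52 ± 0.04 for Rhoj, 0.81 ± 0.04 for Msn and 0.75 ± 0.05 for Phyhd1 (SE). The genes like Edn1 and like Ece1 were chosen by correlation over these same arrays, so the shared time courses follow largely from the choice.

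**Figure D5:**
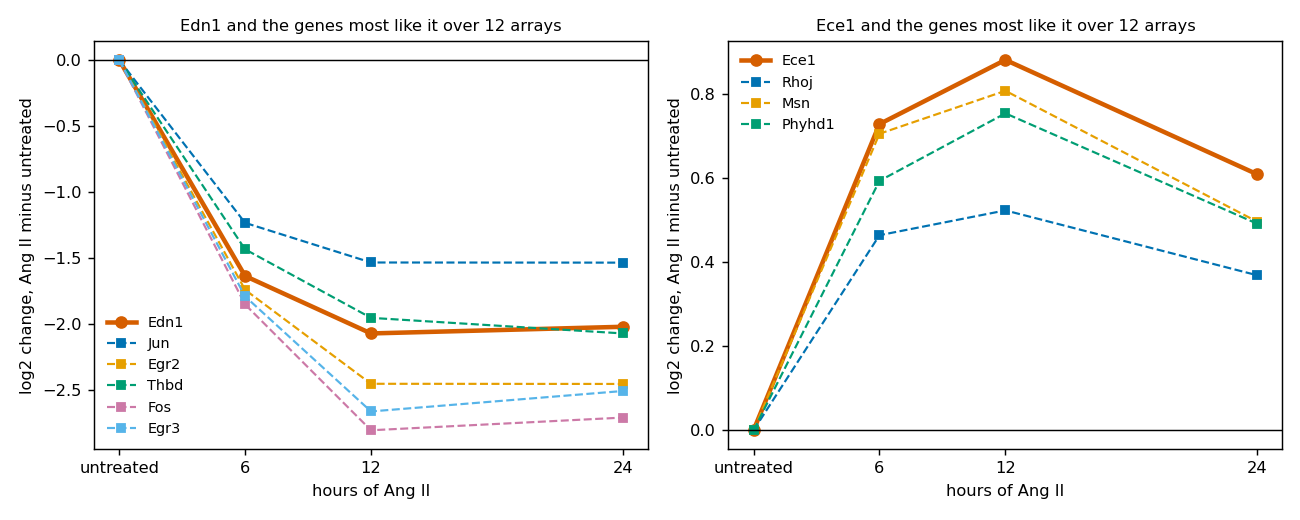
Log2 change against untreated cells over time for Edn1 with the 5 genes most like it, and for Ece1 with the 3 genes most like it (lines join group means of 3 arrays; likeness is Pearson's r over 12 arrays). Edn1 and its 5 companions are lower at 12 h than at 6 h, and Ece1 and its 3 companions are highest at 12 h. The companions were chosen by this correlation, so the shared courses follow largely from the choice.

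The smooth muscle label was set against 10 measured markers, whose mean log2 level was 12.22 to 12.24 on the untreated arrays, 12.29 to 12.31 at 6 h, 12.39 to 12.42 at 12 h and 12.63 to 12.65 at 24 h. Of these 10, 4 rose and 3 fell at 6 h, 5 rose and 1 fell at 12 h, and 9 rose and 0 fell at 24 h. Thus 7, 6 and 9 of the 10 passed. For this and the other marker lists, the share of all genes that passed was 35.8% at 6 h, 26.6% at 12 h and 30.0% at 24 h. The 4 markers named by size of change rose at 24 h, Smtn by 0.66 ± 0.04 (SE), Lmod1 by 0.59 ± 0.04, Des by 0.56 ± 0.06 and Cnn1 by 0.47 ± 0.04. Lmod1 had fallen by 0.19 at 6 h and Des was highest at 12 h (0.63 ± 0.06). Because endothelial cells are the main known source of endothelin-1, 12 endothelial markers were read beside Edn1. Their mean level was 6.63 to 6.64 on the untreated arrays, 6.53 to 6.65 at 6 h, 6.59 to 6.67 at 12 h and 6.70 to 6.73 at 24 h. Of the 12, 1 rose and 2 fell at 6 h, 2 rose and 2 fell at 12 h, and 3 rose and 1 fell at 24 h. Thus 3, 4 and 4 of the 12 passed, beside 35.8%, 26.6% and 30.0% of all genes. Of these markers, Pecam1 (−0.02, −0.10 and −0.01 at 6, 12 and 24 h) and Cdh5 (0.11, 0.11 and 0.09) did not pass at any time, while Tek fell by 0.66, 0.58 and 0.91. Pecam1 and Cdh5 were named after their values were seen, and the endothelial markers not named here are covered only by the counts. Tek, like Edn1, fell at all 3 times, whereas the other passing endothelial markers named by the size of their change did not. Erg fell by 0.34 at 6 h and 0.25 at 12 h and rose by 0.68 ± 0.07 at 24 h (limma adjusted p = 1.82e-05). Esam rose by 0.25 ± 0.06 at 12 h and 0.40 ± 0.06 at 24 h, and Cldn5 rose by 0.29 ± 0.08 at 24 h. Arrays give no zero level, and whether a few endothelial cells were present was not tested. In bulk RNA fewer cells of a type and less RNA per cell cannot be told apart. Of 9 leukocyte and macrophage markers, 0 passed at 6 h and 12 h, and Cd14 fell at 24 h (−1.01 ± 0.08). Of 4 glial and neural crest markers, Gfap passed at 24 h (0.24 ± 0.06), and of 4 epithelial markers, Krt18 passed at 6 h (1.49 ± 0.05) and 12 h (0.50 ± 0.05).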

How the data were processed

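RNA of 12 samples was measured on Affymetrix Rat Gene 1.0 ST arrays. The deposited values are on the log2 scale, 1 per probe set and array, made by the authors. The submitters' processing notes name RMA and Partek, whose versions and settings were not given in the sources used here. Array medians were 7.22 to 7.32. Precision is limited by having 3 arrays a group, with a median SE of a log2 difference of 0.0667. Of 29214 probe sets, 15310 had 1 gene symbol, 323 had several and 13581 are unnamed here; the probe set with the highest mean was kept for each of 14506 genes. Probe set coordinates are left out, since no build is named.

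All genes were fitted with limma 3.58.1 in R 4.3.3 as 4 group means over 12 arrays (8 residual and 3.37 prior degrees of freedom), with two-sided tests and Benjamini-Hochberg adjustment per comparison across the 14506 genes and a threshold of 0.05. The step was tested on simulated data. Named genes are all members, up to 4 passing genes per list with the largest change, and the genes most like a member that passed the F test. Pecam1 and Cdh5 were named beyond that rule, after their values were seen, and so were the neighbouring genes, all measured ones of which are given. The members and lists were chosen with earlier results of these data known. Alternatives were quantile normalization, a trended and robust variance, centring arrays on their medians, fitting the 2 groups alone, a replicate block, dropping each array in turn, testing all probe sets, averaging the probe sets of a gene, and keeping only genes at or above the median level. Tables and figures used Python 3.11.15, pandas 2.3.3 and matplotlib 3.10.9.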

Additional observations from a re-analysis of the deposited data

Results flagged for a closer look

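For 4 of the 5 measured genes the change against untreated cells differed between times by the direct test of the times (limma, adjusted over all genes). Of the 5, 2 passed at 12 h against 6 h, 2 at 24 h against 12 h and 4 at 24 h against 6 h, beside 27.0%, 27.5% and 39.2% of all genes. Edn1 was lower at 12 h than at 6 h (log2 difference −0.435, adjusted p = 0.000695) and lower at 24 h than at 6 h (−0.3845, adjusted p = 0.000996). Ece1 was higher at 12 h than at 6 h (0.1529, adjusted p = 0.0101), lower at 24 h than at 12 h (−0.2726, adjusted p = 0.000262) and lower at 24 h than at 6 h (−0.1197, adjusted p = 0.0259). Edn3 was higher at 24 h than at 12 h (0.2772, adjusted p = 0.0361) and than at 6 h (0.2575, adjusted p = 0.036). Ece2 was lower at 24 h than at 6 h (−0.1707, adjusted p = 0.0281). The calls of Edn3 and Ece2 and that of Ece1 at 24 h against 6 h were each lost when single arrays were left out and under other settings.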

How the results depend on the processing

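Edn1 and Ece1 kept their direction and call against untreated cells at all 3 times in every alternative run, with log2 changes of −2.14 to −1.59 for Edn1 and 0.59 to 0.90 for Ece1. The small changes did not. With the 2 groups alone, Ece1 (−0.12) and Ece2 (−0.17) at 24 h against 6 h, Ece2 at 6 h (0.17) and Edn3 at 24 h against 12 h (0.28) no longer passed, leaving 2 members at 24 h against 6 h and 1 at 24 h against 12 h. With all probe sets tested, Ece2 at 6 h (0.17) and Edn3 at 24 h against untreated (0.25), 12 h (0.28) and 6 h (0.26) no longer passed, leaving 1 member at 24 h against 12 h. With quantile normalization, Ece2 at 24 h against 6 h (−0.12) and Edn3 at 24 h against untreated (0.18), 12 h (0.21) and 6 h (0.17) no longer passed, leaving 2 members at 24 h against 6 h and 1 at 24 h against 12 h. With it 4 values that had not passed changed sign: Ece2 at 24 h against untreated (0.055) and 12 h (0.0092), Edn2 at 24 h against 12 h (−0.015) and Edn3 at 6 h (0.0051). With median centring Ece1 at 24 h against 6 h (−0.081) no longer passed, Ece2 at 12 h against 6 h (−0.14) passed, and Ece2 at 24 h against untreated (0.054) and 12 h (0.011) and Edn3 at 6 h (0.013) changed sign without passing, while 4 members passed the F test. It also moved the split at 24 h against 12 h from 2028 higher and 1955 lower genes to 2957 and 1725. With the filter at the median level, which tests fewer genes and drops Edn2 and Edn3, Ece2 at 12 h against 6 h (−0.14) passed. The 2 groups alone use fewer arrays. The cause of the changed calls was not tested for any of these settings.

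Leaving out each array in turn gave ranges against untreated of 0.12 to 0.22 (Ece2, 6 h), −0.018 to 0.019 (Ece2, 24 h), −0.032 to 0.072 (Edn2, 6 h), −0.058 to 0.040 (Edn3, 6 h), −0.092 to 0.076 (Edn3, 12 h) and 0.20 to 0.30 (Edn3, 24 h). Between 24 h and 6 h they were −0.14 to −0.10 (Ece1), −0.22 to −0.12 (Ece2) and 0.21 to 0.31 (Edn3), with 1 to 4 members passing. Between 24 h and 12 h they were −0.030 to 0.096 (Edn2) and 0.18 to 0.35 (Edn3), with 1 to 2 members passing. Between 12 h and 6 h they were −0.19 to −0.089 (Ece2, which passed without replicate 2 at 6 h), −0.015 to 0.11 (Edn2) and −0.089 to 0.079 (Edn3).

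The correlations did not settle whether the replicate numbers pair the arrays. Deviations of same-numbered arrays correlated above 0.1 in 3 of 18 pairs, and those of other pairs in 5 of 36. The median correlation was 0.026 for same-numbered and −0.02 for other pairs. On average, 7 of 12 arrays correlated best with their own number. With the replicate block the number of genes passing at 6 h was 5059 in place of 5191, and of the members' calls only Ece2 at 6 h changed (0.17, adjusted p = 0.0511). Of the 34 other genes named by the rule, 29 had passed at each time against untreated. With quantile normalization, median centring or the block 0 of those turned round. Only Gfap at 24 h was lost, with quantile normalization, and 1 call was gained at 24 h with median centring. These genes were named for large passing changes or for likeness to Edn1 or Ece1, so the keeping of their calls follows largely from the choice.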

Other observations

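The measured genes next to the members in the RefSeq gene order were read for comparison, up to 2 named protein-coding genes on each side. Of the 4 around Edn1, 3 were measured. Phactr1, the nearest on one side, did not pass at any time (log2 change 0.04 ± 0.09 at 6 h, 0.01 ± 0.09 at 12 h and 0.08 ± 0.09 at 24 h, SE, limma adjusted p = 0.774, 0.972 and 0.524). Tbc1d7, beyond it, fell by 0.53 at 6 h (adjusted p = 4.12e-05) and did not pass later. Hivep1, the nearest on the other side, rose by 0.18 ± 0.05 at 6 h and fell by 0.37 at 12 h and by 0.19 at 24 h. Around Ece1 all 4 were measured. Alpl, the gene of tissue-nonspecific alkaline phosphatase, did not pass at 6 h (0.06 ± 0.06) or 12 h (−0.05 ± 0.06) and rose by 0.20 ± 0.06 at 24 h (adjusted p = 0.0289), and Rap1gap, beyond it, did not pass at any time. Eif4g3, on the other side of Ece1, fell by 0.19 at 6 h, rose by 0.17 ± 0.05 at 12 h and did not pass at 24 h (0.05 ± 0.05). Hp1bp3, beyond it, fell by 0.44 at 6 h and by 0.28 at 12 h and did not pass at 24 h (0.04 ± 0.05).

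Next to Edn2, Hivep3 rose by 1.80 ± 0.07 at 6 h (limma adjusted p = 3.67e-09), where Edn2 did not pass, and did not pass at 12 h (0.15 ± 0.07) or 24 h (0.17 ± 0.07). Guca2b did not pass at any time, and Scmh1 rose by 0.16 ± 0.04 at 24 h only. Near Edn3, Prelid3b rose by 0.18 ± 0.05 at 6 h only. Next to Ece2, Psmd2 rose by 0.14 ± 0.04 at 12 h only, and Camk2n2 rose by 0.18 ± 0.05 at 24 h only. These are all the measured neighbours of the 5 measured members, and they were read after the members' values were known.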
